A study of Mus musculus with 9 samples.

Results

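The immediate early AP-1 and EGR genes are 10 genes that were chosen by name: Fos, Fosb, Fosl1, Fosl2, Jun, Junb, Jund, Egr1, Atf3 and Ier3. All 10 were among the 13787 genes listed in the RNA-seq data and among the 12443 that passed the filter on low values. Immediate early genes are switched on within minutes of a growth factor, stress or second messenger signal, without new protein synthesis, and most are then switched off again. Proteins of the FOS family pair with proteins of the JUN family to form AP-1, a dimer that binds sites of the form TGANTCA. Egr1 is a zinc finger factor of the same early wave. In cultured fibroblasts this wave is the classic response to serum.

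The libraries came from ciXEN cells at passage 5 (ciXEN p5) and passage 30 (ciXEN p30) and from mouse embryonic fibroblasts (MEFs) at passage 3, with 3 libraries in each group and all cells of strain CF-1. ciXEN cells are extraembryonic endoderm-like cells obtained from mouse fibroblasts with small molecules, and lines 1-1, 2-1 and 3-3 were each sequenced at both passages. The lines grew out of hand-picked clones and were kept in KnockOut DMEM with serum replacement, foetal bovine serum, bFGF, VPA, CHIR99021, RepSox, Parnate, forskolin, AM580 and EPZ004777, whereas MEFs were kept in high glucose DMEM with foetal bovine serum and none of these agents. The clones were also moved to plates coated with Matrigel. The paper put MEFs on such plates for induction and for the ATP and flux assays. It does not give the coating for the MEFs taken for RNA. Every comparison with MEFs is thus also one between culture media and passage numbers, and possibly between plate coatings. The effects of these and of cell type cannot be told apart. The labels do not say whether the MEF libraries came from separate embryos, so p-values measure the spread between these libraries. In such bulk RNA, fewer cells of a type and less RNA per cell cannot be told apart.

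Promoters were read from RefSeq on GRCm38.p6 as the 250 bases before to 50 after each start, and 8 of the 10 genes had an entry, all except Fosl1 and Egr1. Both strands were searched for TGANTCA, TGACGTCA (the full cAMP response element, CRE) and the CArG box of SRF. TGANTCA took any base at N, so it is wider than the AP-1 site, also called TRE. Each was found in 0 of the 8 promoters, against 7.81%, 1.79% and 1.63% of 32851 promoters, in that order. Sites further from the start were not searched, so these counts do not show that a gene lacks them. The EGR site GCGNGGGCG was found in Fosb and Fosl2 (5.55% of all promoters) and TATAAA in Fos, 33 bases before the start, and Junb, at the RefSeq start itself (13.6%). TGACG, the first 5 letters of the CRE and so also part of any full CRE, was searched after the promoters had been seen. It lay in Fos, Fosb, Junb and Atf3, against 20.8% of all promoters. The 130 bases before the start of these 4 genes are shown because they hold these letters but differ in their data: Fos and Fosb varied most between single libraries, Junb was lower in every ciXEN library, and Atf3 did not pass the test. Capitals mark TGACG or its reverse complement CGTCA, the EGR site in Fosb and TATAAA in Fos.
Fos, chr12:85473760-85473889, plus strand: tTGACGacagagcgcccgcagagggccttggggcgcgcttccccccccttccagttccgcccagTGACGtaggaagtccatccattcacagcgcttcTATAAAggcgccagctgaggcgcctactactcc
Fosb, chr7:19310046-19310175, minus strand: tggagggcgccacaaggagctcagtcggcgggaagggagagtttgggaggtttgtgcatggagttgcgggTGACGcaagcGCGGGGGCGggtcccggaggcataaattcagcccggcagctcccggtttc
Junb, chr8:84978749-84978878, minus strand: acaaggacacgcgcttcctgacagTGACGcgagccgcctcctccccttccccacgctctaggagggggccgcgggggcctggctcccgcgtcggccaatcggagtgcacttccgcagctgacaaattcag
Atf3, chr1:191183334-191183463, minus strand: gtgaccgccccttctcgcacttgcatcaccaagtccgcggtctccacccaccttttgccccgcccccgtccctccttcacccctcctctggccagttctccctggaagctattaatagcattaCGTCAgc
TGACG began 129 and 66 bases before the start of Fos, 60 before Fosb and 106 before Junb, and its complement lay 7 bases before the start of Atf3. These are RefSeq starts, which differ from those of the listed transcripts for Fosb, Junb and Atf3. The listed Junb transcript starts further downstream, at 84978718, so the TGACG and TATAAA of Junb lie further before that start. The listed Atf3 transcript starts further upstream, at 191183340, so the CGTCA of Atf3 lies at the start of that transcript and not before it. A match is a description of the letters and not evidence of a bound factor.

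Values are FPKM, which scale fragments to transcript length and to the mapped reads of the library, summed over the transcripts of a gene, so levels can be compared between genes. Differences are in log2(FPKM + 1), which understates the change of genes at low levels. A gene was called when its adjusted p was under 0.05 in limma, with Benjamini-Hochberg adjustment over all 12443 genes, two-sided.

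In GENCODE M21 on GRCm38, Fos lies at chr12:85473890-85477273, Fosl1 at chr19:5447547-5455946, Fosl2 at chr5:32135801-32157842, Jund at chr8:70698949-70700616 and Ier3 at chr17:35821684-35822923, all on the plus strand. Fosb lies at chr7:19302696-19310051, Jun at chr4:95049034-95052222, Junb at chr8:84974484-84978718 and Atf3 at chr1:191170296-191218039, all on the minus strand. Each gene was listed with 1 transcript except Fosb, which had 3.

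Against MEFs, ciXEN cells had lower levels of 8 of the 10 genes and higher levels of none. Of all genes tested, 27.6% were called lower, 42.4% higher and 70.1% in either direction. The 8 were Fos, Fosb, Fosl1, Fosl2, Jun, Junb, Egr1 and Ier3, and Jund and Atf3 did not pass. When single libraries were left out the count was 6 to 8, and it was 6 where Fos and Fosb were both lost. The 6 ciXEN libraries are 3 lines sampled at 2 passages, and with the mean of the passages of a line the count was also 6. The median difference of the 10 genes was −1.58, beside a median of 0.20 over all genes tested. The ranges of the 6 ciXEN and 3 MEF libraries did not overlap for 5 genes, Fosl1, Fosl2, Jun, Junb and Egr1, and 24.4% of all genes tested were lower without overlap.

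The order of levels differed between the cells. In ciXEN cells Jund was highest, with a mean of 47.9 ± 11.4 FPKM (SD, n = 6), followed by Jun at 26.9 ± 9.61 FPKM, and their ranges overlapped. Ier3, Junb and Fosl2 came next with means between 7.34 and 10.03 FPKM and ranges that overlapped, and Atf3 stood at 5.37 ± 1.99 FPKM. Fos, Egr1, Fosb and Fosl1 were lowest, with medians of 0.385, 0.176, 0.133 and 0.022 FPKM. In MEFs, Jun (60.9 ± 18.4 FPKM), Egr1 (47.8 ± 21.8 FPKM) and Jund (47.2 ± 2.31 FPKM; SD, n = 3) were highest and their ranges overlapped. By the median, Fosb was lowest in MEFs at 2.53 FPKM, followed by Atf3 at 5.45 FPKM, and their ranges overlapped.

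**Figure D1:**
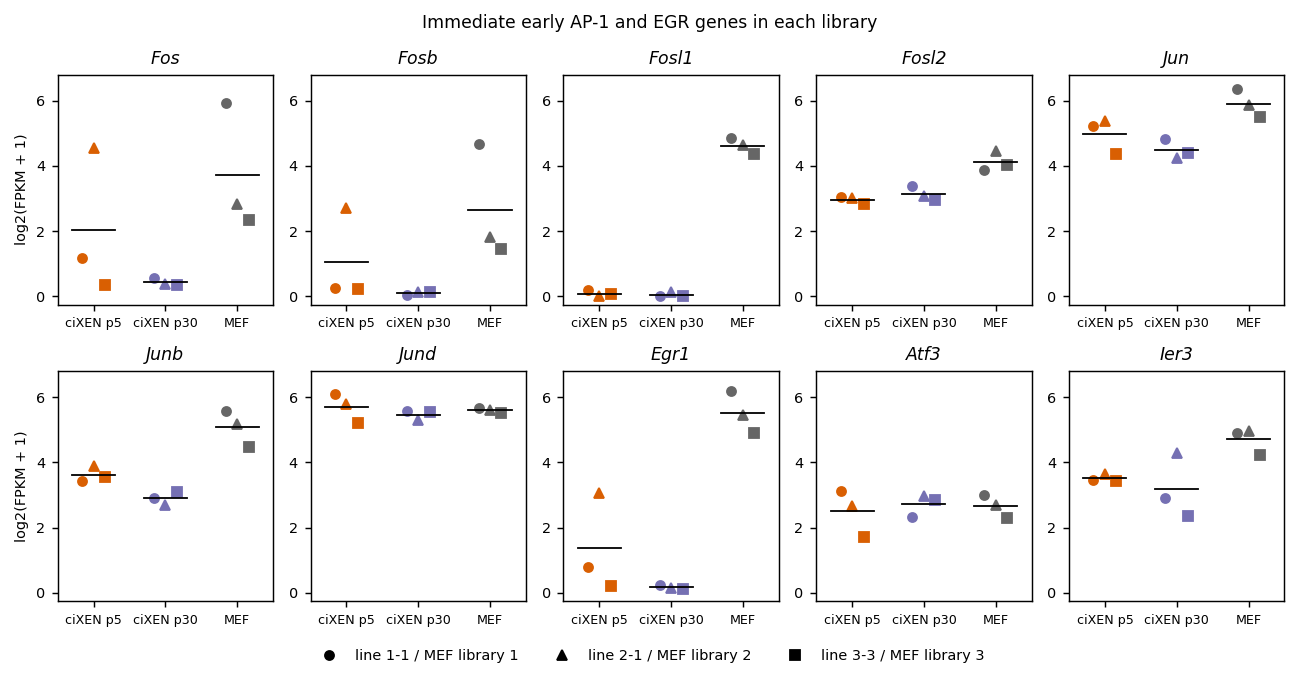
Level of each gene in each library, as log2(FPKM + 1), for ciXEN p5 (orange), ciXEN p30 (violet) and MEFs (grey). Horizontal lines are means of 3 libraries, and the marker shape names the ciXEN line or the MEF library, which share no source. Fosl1 lies near 0 in every ciXEN library, Egr1 lies near 0 in ciXEN p30, the Jund groups overlap, and in Fos and Fosb line 2-1 at p5 and MEF library 1 stand above their groups.

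Among the FOS family, Fosl1 (ENSMUSG00000024912), which encodes FRA-1, an AP-1 partner of JUN proteins that is itself an AP-1 target, was almost undetected in ciXEN cells. It had 0.143, 0 and 0.0439 FPKM in lines 1-1, 2-1 and 3-3 at p5 and 0, 0.104 and 0 FPKM at p30, against 28.2, 23.7 and 19.6 FPKM in MEFs. Every ciXEN library was far below every MEF library, and 3 of the 6 listed the gene at 0. The difference was −4.55 (SE 0.14, adjusted p = 5.8e-09), and it differed by less than its SE between p5 (−4.54) and p30 (−4.57). Fosl1 was called in all 21 alternative analyses.

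Fosl2, which encodes FRA-2, was the most abundant FOS family member in 5 of the 6 ciXEN libraries. It had 7.21, 7.01 and 6.11 FPKM at p5 and 9.52, 7.42 and 6.76 FPKM at p30, against 13.6, 20.8 and 15.3 FPKM in MEFs. The groups did not overlap, and the difference was −1.07 (SE 0.15, adjusted p = 0.000174), smaller on this scale than that of Fosl1. It was the 1 gene of the 10 that was higher at p30 than at p5 in all 3 lines, by 0.18 (SE 0.18, adjusted p = 0.577), which did not pass the test.

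Fos, the prototype immediate early gene, varied most between libraries of 1 group. It had 1.26, 22.5 and 0.276 FPKM in lines 1-1, 2-1 and 3-3 at p5 and 0.463, 0.306 and 0.287 FPKM at p30, against 59.9, 6.19 and 4.08 FPKM in MEFs. Line 2-1 at p5 was above MEF libraries 2 and 3, so the groups overlapped, while the other 5 ciXEN libraries were below all MEFs. The difference for all ciXEN libraries was −2.48 (SE 0.98, adjusted p = 0.0462), and it was not called with the mean of the passages of a line (adjusted p = 0.0525). It was −1.68 at p5 (adjusted p = 0.215, not called) and −3.27 at p30 (adjusted p = 0.0292).
The call for all ciXEN libraries was lost without MEF library 1 (−1.36, adjusted p = 0.229) or MEF library 2 (adjusted p = 0.0597). It was also lost without line 1-1 or 3-3 at p5 (adjusted p = 0.0849 and 0.083) or without line 1-1, 2-1 or 3-3 at p30 (adjusted p = 0.0687, 0.0722 and 0.0725). At p30 it was lost without MEF library 1 (−2.16, adjusted p = 0.106) and without line 1-1, 2-1 or 3-3 (adjusted p = 0.0599, 0.0647 and 0.0661). Without both line 2-1 at p5 and MEF library 1, a choice made after the values were seen, Fos was called in all ciXEN libraries (−1.995, adjusted p = 0.000529) and at p5 (−1.83, adjusted p = 0.0022). Leaving out only line 2-1 at p5 also gave a call at p5 (−2.94, adjusted p = 0.0206).

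Fosb, which encodes another JUN partner, had the same pattern at a lower level. It had 0.208, 5.56 and 0.163 FPKM at p5 and 0.0206, 0.0997 and 0.102 FPKM at p30, against 24.2, 2.53 and 1.73 FPKM in MEFs. The p30 libraries were below all p5 libraries and all MEFs, and line 2-1 at p5 again lay within the MEF range. The difference was −2.06 (SE 0.75, adjusted p = 0.0341; not called with the mean of the passages of a line, adjusted p = 0.0577), with −1.57 at p5 (adjusted p = 0.138, not called) and −2.54 at p30 (adjusted p = 0.028).
The call for all ciXEN libraries was lost without MEF library 1 (−1.05, adjusted p = 0.159), without line 1-1 or 3-3 at p5 (adjusted p = 0.0656 and 0.0659) or without line 1-1, 2-1 or 3-3 at p30 (adjusted p = 0.0567, 0.0541 and 0.0539). At p30 it was lost without MEF library 1 (−1.53, adjusted p = 0.0815) or any of those 3 p30 libraries (adjusted p = 0.0645, 0.0597 and 0.0604). Without line 2-1 at p5 the p5 difference was −2.40 (adjusted p = 0.0294). Without that library and MEF library 1 it was −1.39 (adjusted p = 0.00072).
3 transcripts of Fosb were listed: Fosb-201 with 338 codons, Fosb-205 with 299 and Fosb-206 with 237, the last being the short form known as ΔFosB, which lacks the C-terminal part of the protein. In ciXEN cells Fosb-205 and Fosb-206 were listed at 0 in every library except line 2-1 at p5, which had 2.29 FPKM of Fosb-201, 1.74 of Fosb-205 and 1.52 of Fosb-206. MEFs had 8.79, 1.32 and 0.534 FPKM of Fosb-201, 8.03, 0.754 and 0.426 of Fosb-205, and 7.40, 0.454 and 0.766 of Fosb-206. The 3 forms share most of their sequence, so the split between them is an estimate.

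Of the JUN family, Jun and Junb fell and Jund did not pass the test. Jun, the main partner of FOS proteins, had 36.0, 40.8 and 19.4 FPKM at p5 and 27.4, 17.8 and 20.0 FPKM at p30, against 80.7, 57.5 and 44.4 FPKM in MEFs. All ciXEN libraries were below all MEFs, by −1.18 (SE 0.26, adjusted p = 0.00269). The p5 difference of −0.93 (adjusted p = 0.0209) was lost without MEF library 1 (−0.71, adjusted p = 0.0819) or without line 3-3 (−0.61, adjusted p = 0.0653).
Junb, which can damp the activity of Jun, had 9.76, 13.9 and 10.7 FPKM at p5 and 6.53, 5.50 and 7.54 FPKM at p30, against 46.4, 35.2 and 21.1 FPKM in MEFs. The groups were stepped without overlap, p30 below p5 and p5 below MEFs. Its difference to MEFs was −1.81 (SE 0.22, adjusted p = 6.8e-05) and was called in all 21 alternatives.
Jund, which most cells express without a stimulus, had 66.8, 54.4 and 36.0 FPKM at p5 and 46.4, 38.2 and 45.4 FPKM at p30, against 49.4, 47.3 and 44.8 FPKM in MEFs. The ciXEN values lay on both sides of the MEF values. The difference was −0.01 (95% interval −0.39 to 0.37, adjusted p = 0.96). At p5 it was 0.11 (adjusted p = 0.648), and without line 3-3 at p5 it was 0.35 and called higher (adjusted p = 0.0397).

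Egr1, a serum-induced zinc finger factor, was below 1 FPKM in 5 of the 6 ciXEN libraries. It had 0.728, 7.39 and 0.166 FPKM at p5 and 0.186, 0.0965 and 0.0947 FPKM at p30, against 71.6, 42.8 and 28.9 FPKM in MEFs. All ciXEN libraries, line 2-1 at p5 included, were below all MEFs. The difference was −4.75 (SE 0.55, adjusted p = 4.4e-05), with −4.15 at p5 (adjusted p = 0.000317) and −5.34 at p30 (adjusted p = 6.6e-05), and all 21 alternatives called it lower.

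Atf3, a stress-induced factor that can pair with JUN proteins, had 7.74, 5.28 and 2.25 FPKM at p5 and 4.01, 6.77 and 6.16 FPKM at p30, against 6.96, 5.45 and 3.85 FPKM in MEFs. The groups overlapped throughout, and the difference was −0.05 (95% interval −0.74 to 0.63, adjusted p = 0.885).
Ier3, an early response gene linked to cell survival, had 9.95, 11.5 and 9.77 FPKM at p5 and 6.49, 18.4 and 4.10 FPKM at p30, against 29.1, 30.2 and 17.8 FPKM in MEFs. Line 2-1 at p30 was above the lowest MEF library, and the other ciXEN libraries were below all MEFs. The difference was −1.36 (SE 0.36, adjusted p = 0.00792), and −1.29 without both line 2-1 at p5 and MEF library 1 (adjusted p = 0.0532, not called). At p5 it was −1.19 (adjusted p = 0.0305). That call was lost without MEF library 1 or 2 (adjusted p = 0.09 and 0.0956) and without line 1-1, 2-1 or 3-3 at p5 (adjusted p = 0.0708, 0.0529 and 0.0734). At p30 it was −1.53 (adjusted p = 0.0101), and without both of those libraries −1.42 (adjusted p = 0.0532).

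The passages were each compared with the same MEF libraries, so those comparisons are not independent. At p5, 6 of the 10 genes were called lower, where 25.8% of all genes were and 66.5% were called in either direction. They were Fosl1, Fosl2, Jun, Junb, Egr1 and Ier3, and the same 6 lay below all MEFs without overlap, as 28.6% of all genes did. Without MEF library 1 the count was 4, and without line 2-1 at p5 it was 7. At p30, 8 of the 10 were called lower, against 26.6% of all genes, with 64.8% called in either direction. All of these except Ier3, 7 genes, were lower without overlap, as were 28.3% of all genes. Without MEF library 1, or without line 1-1, 2-1 or 3-3 at p30, the count was 6.

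Between the passages, 0 of the 10 genes were called, where 8.69% of all genes were and 5.61% were lower at p30. limma gave 1 of the 10 an unadjusted p under 0.05, Junb, against 25% of all genes. Junb differed by −0.72 at p30 relative to p5 (SE 0.26, adjusted p = 0.119), with all p30 libraries below all p5 libraries. Within the lines, p30 was lower than p5 in 3 of 3 lines for Fosb, Junb and Egr1, in 2 of 3 for Fos, Fosl1, Jun, Jund and Ier3, in 1 for Atf3 and in none for Fosl2. 2 genes, Fosb and Junb, were lower at p30 without overlap, as were 16.4% of all genes. For Fos the interval of the difference ran from −4.15 to 0.96 and for Egr1 from −2.62 to 0.24, so large differences between passages could not be told from none.

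**Figure D2:**
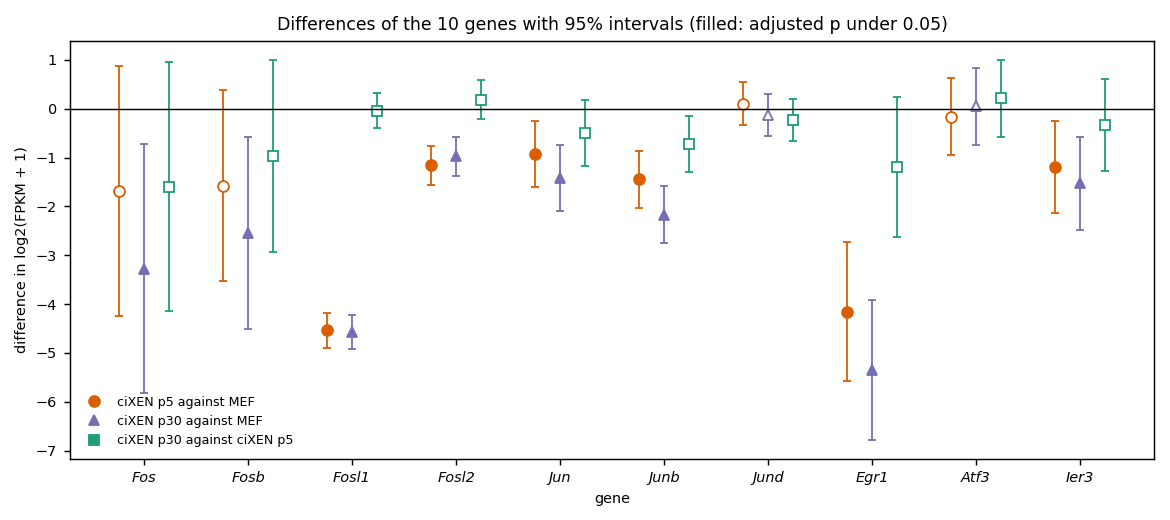
Difference in log2(FPKM + 1) of each gene for ciXEN p5 against MEF, ciXEN p30 against MEF and ciXEN p30 against ciXEN p5, with 95% intervals from limma; filled markers passed an adjusted p of 0.05. All filled markers lie below 0, the intervals of Jund and Atf3 hold 0 in all 3 comparisons, and the widest intervals are those of Fos, Fosb and Egr1.

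The make-up of the FOS and JUN families also differed between the cells. In ciXEN cells Fosl2 held a median of 93.1% of the summed FOS family FPKM (20.0% to 95.2%), against 37.6% in MEFs (10.8% to 39.1%). The lowest ciXEN share was line 2-1 at p5, in which Fos held 64.1%, and MEF library 1 had 47.6% Fos. Fosl1 held a median of 44.6% of the family in MEFs and at most 1.62% in any ciXEN library. The summed FOS family was 6.60 to 35.0 FPKM in ciXEN cells, against 40.7 to 126 FPKM in MEFs.
In the JUN family, Jund held a median of 58.5% in ciXEN cells (49.9% to 62.3%), against 33.8% in MEFs (28.0% to 40.6%), without overlap. Junb held 8.13% to 16.2% in ciXEN cells and 19.2% to 26.3% in MEFs. The JUN sum was 61.5 to 113 FPKM in ciXEN cells and 110 to 177 FPKM in MEFs, so that the ratio of JUN to FOS transcripts was 3.11 to 12.8 in ciXEN cells and 1.40 to 2.71 in MEFs. No test was run on these shares.

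**Figure D3:**
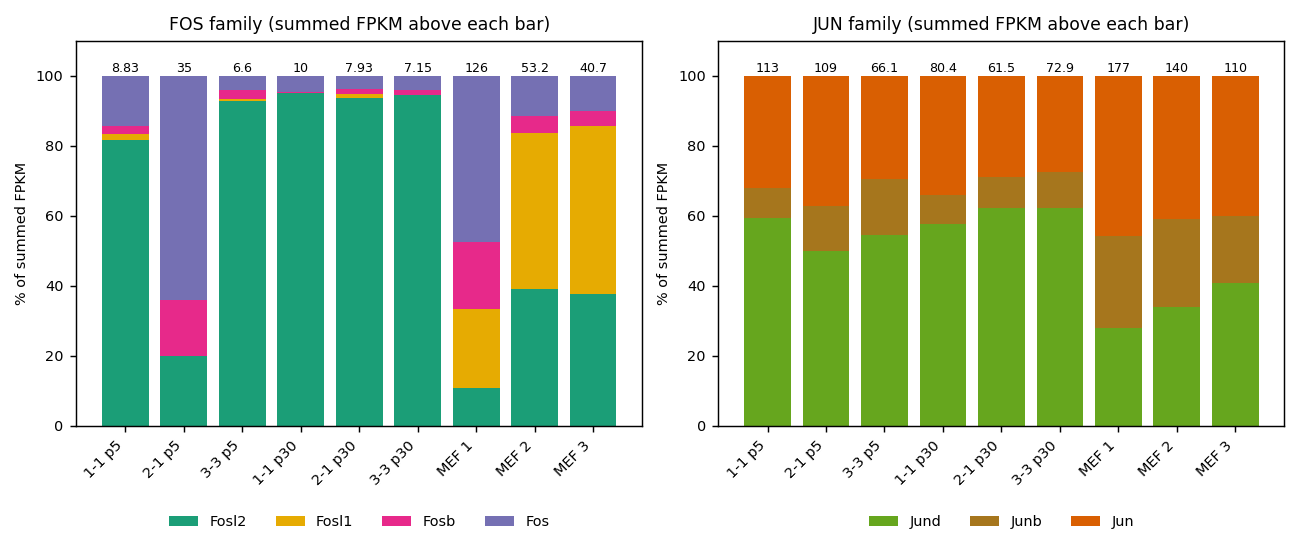
Share of each gene in the summed FPKM of the FOS family (left) and the JUN family (right) in each library, ciXEN p5, ciXEN p30 and then MEF; the number above a bar is the summed FPKM. Fosl2 fills 81.7% or more of the FOS bar in every ciXEN library except line 2-1 at p5, and Jund fills 49.9% or more of every ciXEN JUN bar.

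Line 2-1 at p5 and MEF library 1 both stood above their groups for Fos and Fosb. Line 2-1 at p5 had 29.2 times the mean of the other p5 libraries for Fos, 29.9 times for Fosb and 16.5 times for Egr1, and was at least 2 times both of them for these 3 of the 10 genes, as it was for 2.24% of all genes. It was the highest p5 library for 6 of the 10, where 33.8% of all genes were highest in it. In that library Jun, Junb, Ier3, Jund, Atf3 and Fosl2 stood at 1.47, 1.36, 1.17, 1.06, 1.06 and 1.05 times the mean of the others. So 3 genes were high there and the other 6 detected ones stayed near their group. The same line at p30 had the lowest Jun and Junb of all ciXEN libraries.
MEF library 1 was the highest MEF library for 8 of the 10 genes, where 36.2% of all genes were highest in it. Only Fos, at 11.7 times the mean of the other MEF libraries, and Fosb, at 11.4 times, were at least 2 times both others, as were 1.7% of all genes. Egr1 was at 2.00 times that mean.
Of other immediate early genes, MEF library 1 was at least 2 times both other MEF libraries for Nr4a1 and Nr4a3, orphan nuclear receptors, for Dusp1, a MAP kinase phosphatase, and for Zfp36, which destabilises early mRNAs. Line 2-1 at p5 was at least 2 times both others for Egr3, Dusp5, Dusp6, Spry4 and Ptgs2, some of them at low levels. Egr3 had 0.786 FPKM there, against 0 FPKM in the other p5 libraries, Dusp5 had 0.417 FPKM, Dusp6 0.548 FPKM and Ptgs2 0.0666 FPKM. Zfp36 was raised in both, at 2.82 times the next MEF library in MEF library 1 and, below that limit, at 1.76 times the next p5 library in line 2-1. Nr4a1 was at 3.66 times the other MEFs in MEF library 1 and at 1.21 times the other p5 libraries in line 2-1. The early genes named next stayed below 2 times the highest other library of their group. In line 2-1 at p5, Arc (0.240 FPKM there), Klf2 and Egr2 were at 1.96, 1.89 and 1.64 times the highest other p5 library. Dusp1, Ier2, Btg2 and Ccn1 were at 0.695, 1.13, 1.09 and 1.26 times it. In MEF library 1, Btg2, Arc, Ier2, Ccn1 and Klf2 were at 1.72, 1.63, 1.54, 1.39 and 1.30 times the highest other MEF library. Egr2 and Egr3 were at 0.454 and 0.929 times it. Of all genes tested, 1.7% reached the limit in MEF library 1 and 2.24% in line 2-1 at p5.
Fibroblast markers summed to 15.9 FPKM in line 2-1 at p5, against 10.7 and 9.98 FPKM in the other p5 libraries and 3325 to 3767 FPKM in MEFs. The excess lay in Thy1, a surface glycoprotein, which was at 10.1 FPKM there, against 4.80 and 4.42 FPKM in the other p5 libraries, while Col1a1, a collagen, was at 1.94 FPKM, against 1.89 and 1.88 FPKM. The part of fibroblast content in these values was not tested.

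**Figure D4:**
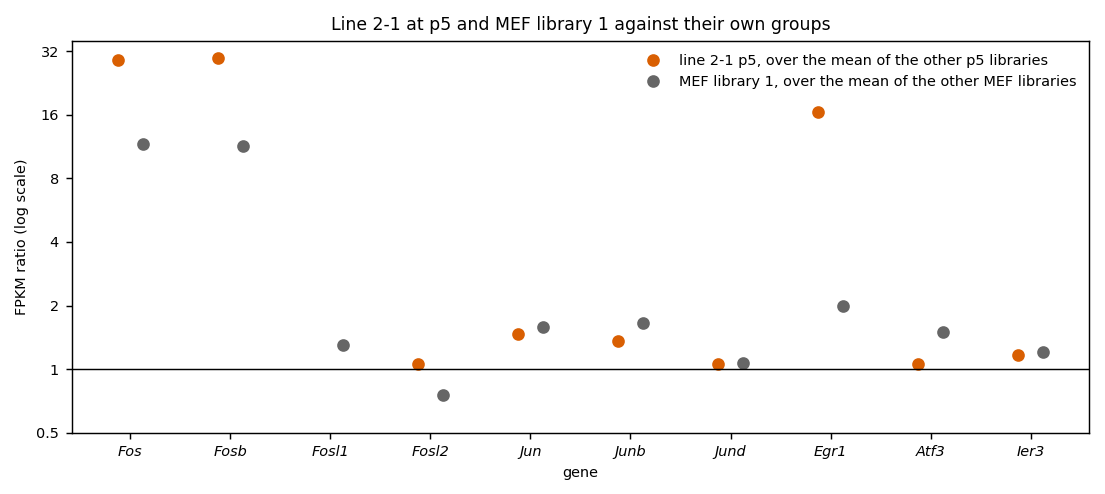
Ratio of line 2-1 at p5 to the mean of the other p5 libraries (orange) and of MEF library 1 to the mean of the other MEF libraries (grey), on a log axis; Fosl1 has no orange point because that library listed it at 0. Fos and Fosb are at 11.4 or more in both, Egr1 is at 16.5 in line 2-1 and 2.00 in MEF library 1, and the rest lie between 0.756 and 1.65.

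The genes whose profile over the 9 libraries was most like that of a member were found by the root mean square difference of centred log2(FPKM + 1). Fos and Fosb were each other's nearest gene, at 0.53. Next to Fos came Rtp4 (0.84) and Gbp3 (0.85), and next to Fosb came Zfp36 (0.61) and Irf7 (0.66). Rtp4, Gbp3 and Irf7 are known as interferon-induced genes, as is Isg15, the nearest to Egr1 at 0.45. Isg15 had 2.08, 9.25 and 0.0491 FPKM at p5 and 0.110, 0.551 and 0.352 FPKM at p30, against 113, 38.4 and 69.3 FPKM in MEFs. It was thus also highest in line 2-1 at p5 among ciXEN cells and in MEF library 1 among MEFs.
Jun was most like Bin2 (0.21) and Klf6 (0.21), itself an early response factor, and Junb most like Nfat5 (0.24). Fosl1 was most like Olfml3, Adamts12 and Ifi211, at 0.14 each, all near 0 in ciXEN cells. Fosl2 was most like Glce (0.10), Jund most like 2410002F23Rik (0.11), Atf3 most like Tmem129 (0.24) and Ier3 most like Amotl2 (0.24). These values describe 9 libraries and were not tested.

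Other bZIP factors, the wider class of AP-1 proteins, were lower for 7 of 14 genes tested in ciXEN cells and higher for 1. Their median difference was −0.33. Over all genes the shares were 27.6% lower and 42.4% higher. Jdp2, a repressor that pairs with JUN proteins, differed by −2.13 (SE 0.34, adjusted p = 0.000405), with 7.99 to 28.3 FPKM in ciXEN cells, against 70.1 to 77.6 FPKM in MEFs. Atf5, Ddit3 and Atf4, all of the integrated stress response, fell, by −3.38, −2.79 and −1.27. Crem, a cAMP-responsive factor, was higher by 0.65 (SE 0.13, adjusted p = 0.00149). Of the MAF factors 3 of 5 fell, among them Maf and Maff, by −2.78 and −2.24, and none rose.
All 4 genes tested of the rest of the EGR group were lower. Nab2, an EGR-induced corepressor of EGR factors, fell, by −4.53 (SE 0.19, adjusted p = 4.3e-08), with 2.67, 3.01 and 2.87 FPKM at p5 and 1.77, 2.70 and 0.907 FPKM at p30, against 78.3, 65.4 and 76.8 FPKM in MEFs. Nab2 did not share the high value of Egr1 in line 2-1 at p5. Egr3, Egr2 and Nab1 fell, by −2.12, −1.78 and −1.46.

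Of other immediate early transcription factors, 10 of 21 were lower and 5 higher, with a median of −0.48. Ier5l, Id3 and Nr4a1 fell, by −3.42, −2.85 and −2.81. Klf4, Hes1 and Btg2 were higher, by 2.89, 2.16 and 1.17, with Klf4 at 88.7 to 167 FPKM in ciXEN cells and 10.9 to 26.0 FPKM in MEFs. Over all genes tested, 27.6% were called lower and 42.4% higher, with a median of 0.20. These shares also apply to the lists that follow.
Of the feedback phosphatases, SPRY proteins and RNA decay factors that shut the response off, 9 of 18 were lower and 3 higher. Errfi1, Dusp5 and Dusp6 fell, by −2.49, −2.40 and −2.21. Socs3, an inhibitor of cytokine receptor signalling, was higher by 2.81 (SE 0.12, adjusted p = 4.4e-08), and Spry2 and Zfp36l1 each by 0.65 to 0.66.
Of the early secreted and cytoplasmic products, 16 of 21 were lower and 3 higher, with a median of −1.85. Ccn2, a matricellular protein, fell, by −5.89, Ccl2 and Cxcl1, chemokines, by −5.12 and −4.18, and Ptgs2, the inducible cyclooxygenase, by −4.50. Lif and Sgk1 were higher, by 1.86 and 1.43. Between the passages Ccn2 and Gadd45b were lower at p30, by −1.29 and −0.81 (adjusted p = 0.041 and 0.0376).

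Genes described as AP-1 targets were lower for 13 of 16 and higher for 2, with a median of −2.35. Tnc and Spp1, matrix genes of fibroblasts, fell, by −7.75 and −7.42. Krt18, an epithelial keratin, and Ezr, a cortical linker, were higher by 6.90 and 1.75. Many of these genes are also fibroblast or epithelial genes, and all 10 fibroblast markers were lower and 8 of 10 XEN markers higher. Vim and Cd44 were higher at p30 than at p5, by 1.62 and 1.01 (adjusted p = 0.00122 and 0.0309), while no member was called.
Upstream, genes of the MAP kinase and JNK pathways were lower for 3 of 21 and higher for 7, with a median of 0.15. Of all genes tested, 27.6% were called lower and 42.4% higher, with a median of 0.20. Map3k1, a kinase upstream of JNK, and Rps6ka1, a kinase downstream of ERK, were higher by 3.02 and 2.51, and Rps6ka4 and Map2k3 fell, by −1.57 and −1.32. Among the ternary complex, SRF and CREB coactivator genes 5 of 11 were lower and 2 higher. Elk3 fell, by −1.77 and Crtc3, a cAMP-regulated CREB coactivator, was higher by 1.68. The other 11 of the 21 kinase pathway genes did not pass.

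**Figure D5:**
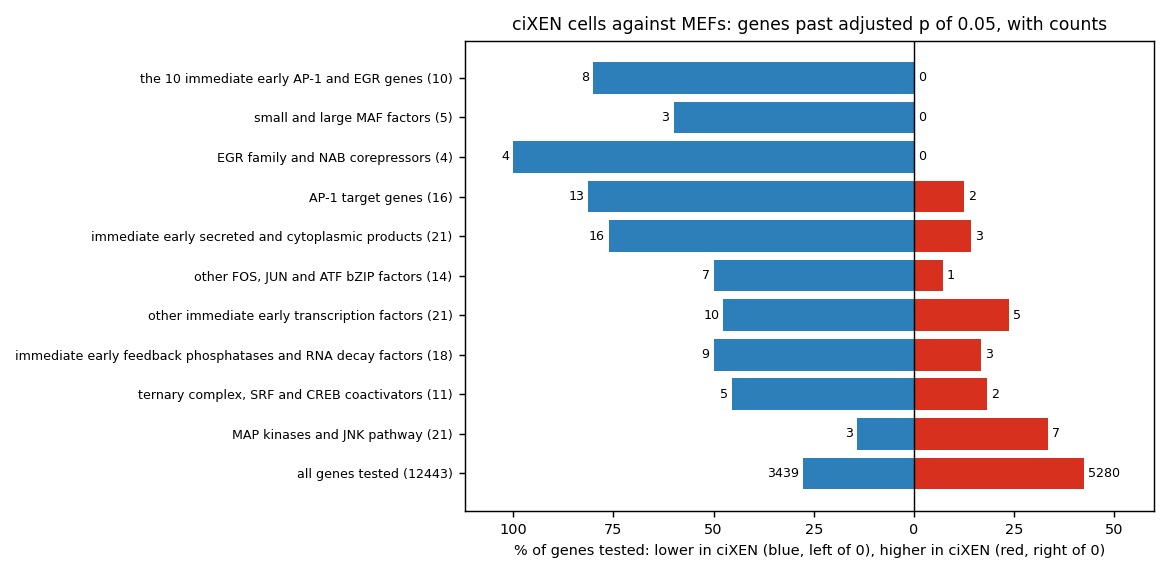
Share of the 10 genes and of each immediate early, AP-1 or kinase list called lower (blue, left) and higher (red, right) in ciXEN cells against MEFs, with counts at the bars and the number of genes tested in brackets; the bottom row is all genes tested. The 10 genes, the EGR group and the AP-1 targets have 80% or more of their genes called lower, against 27.6% of all genes. Marker lists are not drawn, and of these the fibroblast (10 of 10) and macrophage (9 of 10) markers were also mostly called lower.

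Markers of other cells were measured in the same libraries. XEN markers summed to 1631 to 2519 FPKM in ciXEN cells, against 211 to 287 FPKM in MEFs, and Sox17 was at 165 to 228 FPKM in ciXEN cells, against 0.835, 0 and 0.396 FPKM in MEFs. Macrophage markers, of which 9 of 10 were called lower, summed to 2.88 to 8.48 FPKM in ciXEN cells, against 188, 112 and 143 FPKM in MEFs, the highest being MEF library 1. Adgre1, Fcer1g, C1qa, C1qb and Aif1 were listed at 0 in every ciXEN library. Endothelial markers were higher for 3 of 4 tested and lower for none, and summed to 11.4 to 24.1 FPKM in ciXEN cells, against 1.76 to 2.31 FPKM in MEFs. Esam, a junction protein, and Cdh5, an endothelial cadherin, were higher by 2.48 and 2.47 (adjusted p = 2.6e-07 and 9.5e-06). Heat shock genes were higher for 6 of 10 and lower for 3, where 42.4% of all genes were called higher and 27.6% lower. The part of heat shock genes and of endothelial markers in the levels of the 10 genes was not tested. Macrophages can express several of the 10 genes, and their part in the MEF levels was not tested.
Fosl1, Jun, Junb, Jund and Atf3 overlap a gene on the other strand (Ccdc85b, Junos, Prdx2, Gm11175 and Gm24748). The kit kept the strand, but no source used here says whether counting used it.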

How the data were processed

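RNA with rRNA removed from 9 libraries was made into stranded libraries and sequenced on an Illumina HiSeq. The authors deposited FPKM values for 29599 transcripts. Tools named in the submitters' processing notes are STAR 2.5.2b, HISAT2 2.0.5, StringTie and cutadapt, with hg19, a human build. For these mouse values the aligner and build are not given in the sources used here. The same holds for depth, and read counts were not used.

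Transcripts were matched by ID to GENCODE M21 on GRCm38 (29521 matched; the 78 others held 0.158% of the FPKM). FPKM were summed per gene. The summed FPKM was 315395 to 342201 per library, and 10593 to 11130 genes reached 1 FPKM. Genes whose mean reached 0.5 FPKM (12443) were fitted as log2(FPKM + 1) in limma 3.58.1 (R 4.3.3; lmFit, eBayes with trend), 3 groups in 1 fit, with 4 contrasts. ciXEN against MEF sets the mean of the p5 and p30 group means against MEFs. The steps were tested on simulated data.

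Members and lists were chosen with earlier results of these data known. Named genes are the 10 members, up to 4 called genes with the largest difference and 2 of the other sign in each list, up to 2 called between passages, and the 3 genes nearest in profile to each member. Some genes that this rule named are not reported here. Genes at 2 times their group, markers and overlapping genes were named after their values were seen. p5 and p30 libraries of 1 number come from 1 line, per the labels, and MEFs share only a number. After removal of group means, libraries of 1 line correlated at −0.0054, 0.0142 and 0.0714. Alternatives were other pseudocounts, filters, scalings and variance models, the replicate block, 2-group fits, line means and leaving out libraries.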

Additional observations from a re-analysis of the deposited data

Results flagged for a closer look

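Among the 6 ciXEN libraries, 3 of the 10 genes had 1 library far above the rest by Dixon's ratio, the gap to the next library over the whole range, past its 95% critical value for 6 libraries. Fos was at 22.5 FPKM in line 2-1 at p5, with a ratio of 0.956. Fosb was at 5.56 FPKM in the same library, with a ratio of 0.966, and Egr1 at 7.39 FPKM, with a ratio of 0.913. For values with a normal spread, chance marks about 1 in 20 groups. The ratio was taken on FPKM without logs over p5 and p30 together, and most values of these genes were low, so that rate may not hold here. The 3 genes come from the same library, so they are not independent. Groups of 3 libraries were not examined in this way, which leaves out MEF library 1.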

How the results depend on the processing

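No alternative turned the direction of a called gene of the 10. Fosl1, Fosl2, Junb and Egr1 were called lower than MEFs in all 21 alternatives, and Jun in all 21 for ciXEN cells and for p30. Fos in all ciXEN libraries also missed the threshold with no filter (adjusted p = 0.0538), without a trend (0.0523), with 2 groups only (0.0579) and with the mean of the passages of a line (0.0525), and Fosb with that mean (0.0577).
The genes whose difference changed sign were not called there. Without single libraries, ciXEN against MEF ranged from −0.1072 to 0.1115 for Jund, −0.2404 to 0.1449 for Atf3, −0.2502 to 0.0411 for Dusp4, −0.1377 to 0.0735 for Dab2 and −0.0889 to 0.2147 for Cd14. For p5 the range was −0.0891 to 0.3483 for Jund, of which only 0.3483 was called, and −0.4772 to 0.2359 for Atf3, and for p30 it was −0.1335 to 0.2458 for Atf3. Between passages it was −0.085 to 0.0168 for Fosl1, −0.182 to 0.5311 for Atf3 and −0.881 to 0.0812 for Ier3. Jund at p5 was −0.0158 with equal medians, and Atf3 at p30 was −0.0199 with equal FPKM sums.
Without both MEF library 1 and line 2-1 at p5, chosen after seeing the data, Atf3 was 0.0774 and 266 genes were called between passages, against 1081 in all. With 2 groups only 517 were called there, and without single libraries 437 (line 1-1 at p5) to 982. Of these calls 35.4% were higher at p30, but 58.2% with equal medians and 46.6% by quantiles. Equal medians moved the median of all genes at p5 against MEF by −0.107.
With the replicate block on 9 libraries 813 genes were called between passages, and with the block on those 2 groups alone 169. The block changed no call of the 10 genes. Read depth is unknown, so values near 0 have no counting interval.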
